A study of Mus musculus with 30 samples.

Results

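Transcript levels of 10 genes of the antioxidant and metal-binding response were described in satellite cells, which are the muscle stem cells of the mouse. They are Nfe2l2, Hmox1, Nqo1, Gclc, Gclm, Txnrd1, Srxn1, Slc7a11, Mt1 and Mt2, taken by symbol from 55450 gene identifiers, and all 10 were found in each of the 3 deposited count tables. The study followed satellite cells of C57BL/6 mice through injury of the hind limb with barium chloride (BaCl2), which kills muscle fibres, and through the repair that follows. Per the labels' protocols, mice were perfused with the fixative paraformaldehyde (PFA) before the cells were isolated. There were 30 libraries in 15 groups of 2. The time course held uninjured cells, which had no treatment, and cells fixed 0.5, 1, 2, 4, 8, 16, 32 and 60 h after injury. A regeneration table held cells from 7, 14 and 28 days (7 d, 14 d, 28 d). Another table held old cells, for which no age is given. These were oQSC (fixed in place, no treatment), oFISC (freshly isolated) and oASC (2.5 days after injury). The labels of oFISC name both the injury and fresh isolation, so whether these cells were injured is uncertain, and neither oFISC nor oASC is labelled as fixed in place. The word younger is used for cells without the label old, and their age is not given either. Nothing in the labels says whether the libraries of a group came from separate animals, so all errors and p-values measure the spread between these libraries, which may be technical.

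Each library held between 9.18 and 57.4 M counts. Values are in CPM, read counts per M counts of the library after scaling for library composition, given with the SD over 2 libraries, and within each table they are on the scale of that table's own fit. Where tables are compared, the scale of all 30 libraries is used and named. A gene was called changed when its adjusted p in edgeR's quasi-likelihood test was under 0.05 over all genes tested.

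Several libraries stood apart from their group, and this bears on the results that follow. Pax7, the factor that marks satellite cells, was at 1781 and 1570 CPM in the uninjured libraries, and Myod1, which rises on activation, was at 42.3 and 51.3 CPM. At 0.5 h the libraries differed, with Pax7 at 756 and 135 CPM and Myod1 at 115 and 1518 CPM in libraries 1 and 2. The same kind of split was seen at 1 h (Myod1 159 and 1833 CPM), at 2 h (1976 and 81.8 CPM) and at 4 h (87.8 and 2174 CPM). The high library was library 2 at 0.5, 1 and 4 h and library 1 at 2 h. The oQSC libraries, labelled as fixed and untreated, had Myod1 at 931 and 1301 CPM and Pax7 at only 73.6 and 61.6 CPM. The share of ribosomal RNA was 49.7% and 37.3% in uninjured cells, 4.26% to 11.6% from 0.5 to 32 h, and 28.3% and 31.2% at 60 h. It was 4.23% to 20.9% in the libraries of 7 to 28 d, 0.393% and 0.541% in oQSC, 1.86% and 4.88% in oFISC, and 16.1% and 16.0% in oASC.

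As background, Nfe2l2 encodes Nrf2, a transcription factor that is held in the cytoplasm and degraded by Keap1 under resting conditions. Oxidants and electrophiles block that degradation, and Nrf2 then pairs with small Maf proteins on antioxidant response elements in the promoters and enhancers of its targets. Hmox1, whose product breaks heme down to iron, carbon monoxide and biliverdin, is also held down by the repressor Bach1, which heme releases. Metallothioneins bind zinc and copper and are induced by metals through the factor Mtf1, by glucocorticoids and by oxidants.

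The stretches before the start sites of 4 members are shown because they differ in the matches to such elements found within them. They are the 250 bases upstream of each RefSeq start site (GRCm38.p6, 5′ to 3′), all on the plus strand, at chr8:94178839-94179088 (Mt1), chr8:94172368-94172617 (Mt2), chr2:152105274-152105523 (Srxn1) and chr3:122245307-122245556 (Gclm). Capitals mark matches, on either strand, to an antioxidant response element (TGACNNNGC), a metal response element (TGCACNC or TGCGCNC) or an AP-1 site (TGANTCA).
Mt1: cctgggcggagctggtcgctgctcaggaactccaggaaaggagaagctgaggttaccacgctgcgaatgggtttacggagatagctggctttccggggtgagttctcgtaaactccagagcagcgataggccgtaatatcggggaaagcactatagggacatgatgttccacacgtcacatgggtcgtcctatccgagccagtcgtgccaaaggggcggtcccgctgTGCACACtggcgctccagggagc
Mt2: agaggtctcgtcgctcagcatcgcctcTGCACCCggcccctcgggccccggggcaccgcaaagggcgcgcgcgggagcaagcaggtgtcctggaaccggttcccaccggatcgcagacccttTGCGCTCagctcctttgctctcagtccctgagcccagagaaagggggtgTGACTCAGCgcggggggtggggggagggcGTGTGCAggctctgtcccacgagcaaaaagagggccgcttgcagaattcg
Srxn1: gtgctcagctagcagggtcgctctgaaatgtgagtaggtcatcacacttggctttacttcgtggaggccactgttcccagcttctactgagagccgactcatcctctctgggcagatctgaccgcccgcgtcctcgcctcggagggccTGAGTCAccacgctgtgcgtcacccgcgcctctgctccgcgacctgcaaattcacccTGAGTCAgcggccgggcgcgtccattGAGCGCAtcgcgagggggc
Gclm: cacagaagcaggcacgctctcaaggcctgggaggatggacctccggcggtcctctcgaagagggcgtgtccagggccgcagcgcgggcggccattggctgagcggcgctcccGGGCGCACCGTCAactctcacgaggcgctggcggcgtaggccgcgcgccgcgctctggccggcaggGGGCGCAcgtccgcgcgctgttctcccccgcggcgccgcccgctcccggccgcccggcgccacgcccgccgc
Promoter entries were matched for 8 of the 10 members, with 10 start sites in all. Hmox1 and Gclc had no entry, so no motif was searched for them. In the 250 upstream bases Mt2 held 3 metal response element matches, and its antioxidant response element match, from 79 to 71 bases before the start, overlapped an AP-1 match. A further metal response element match of Mt2 lay from 5 bases after the start. Mt1 held 1 metal response element match upstream, and 2 more within the 50 bases after this RefSeq start site. Bases beyond these 50 and other possible start sites of Mt1 were not searched, so the matches describe this window only. Srxn1 held 2 AP-1 matches and 1 metal response element match upstream, and its antioxidant response element match lay from 29 bases after the start. Gclm held an antioxidant response element match that overlapped a metal response element match, a second metal response element match nearer to the start, and 1 more from 28 bases after it. Nfe2l2 and 1 of 3 Txnrd1 start sites each held 1 antioxidant response element match, and no match to any of the 3 motifs was found for Nqo1 or Slc7a11 in these windows. Over 32851 promoters the shares with a match in the 250 upstream bases were 10.2% for the antioxidant response element, 21.4% for the metal response element and 6.75% for AP-1. A match is a string of letters and was not measured as a binding site.

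**Figure D1:**
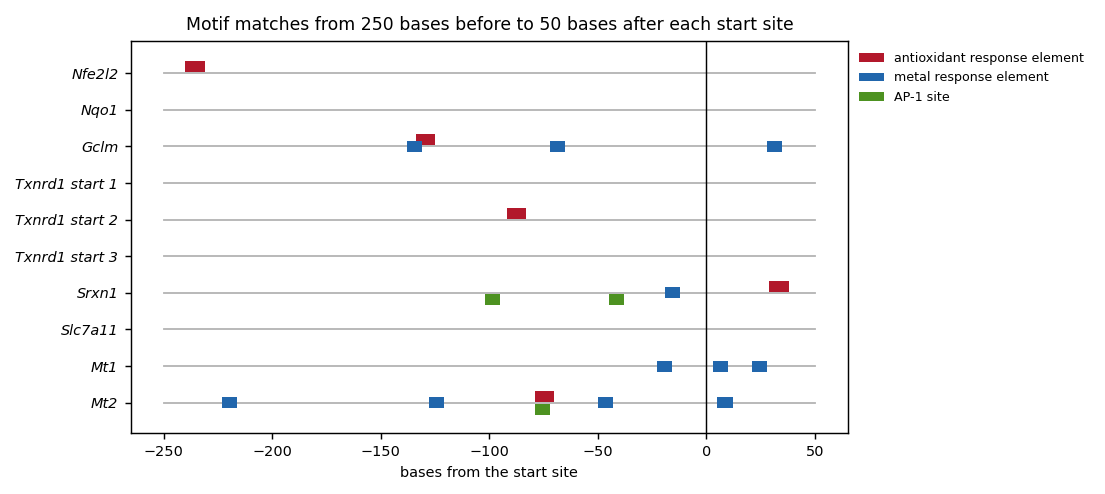
Matches to 3 motifs, as coloured bars, from 250 bases before to 50 bases after each RefSeq start site of the members (horizontal axis, bases from the start site; 1 line per start site). Within these windows Mt1 and Mt2 both hold metal response element matches, and Mt2 also holds an antioxidant response element match. Bases outside the windows were not searched. Hmox1 and Gclc had no promoter entry and are not drawn.

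After injury Mt1 was called higher than in uninjured cells at every time from 0.5 to 60 h and Mt2 from 0.5 to 32 h, while 7 of the other 8 members were called at 8 h and at no other time up to 60 h. All these comparisons share the same 2 uninjured libraries. Mt1 and Mt2 were the 2 of 10 members called higher than in uninjured cells at 0.5 h, where 6.88% of all genes tested were called higher. They were again the only 2 called at 1 h (6.57% of all genes), 2 h (6.32%) and 4 h (7.18%). At 8 h 9 of 10 members were called higher, against 16.1% of all genes. At 16 h (14.2%) and 32 h (14.1%) the called members were again Mt1 and Mt2, and at 60 h (15.5%) Mt1 alone. In a test for any change over the 9 groups of the time course, Mt1 (adjusted p = 0.00564) and Mt2 (adjusted p = 0.0164) were called, against 24.7% of all genes. The median log2 fold change of the members at 8 h was 5.66 and that of all genes tested was 0. In these bulk samples fewer cells of a type and less RNA per cell cannot be told apart. On the scale of all 30 libraries the sum of 10 macrophage and monocyte markers was 5.79 and 4.18 CPM in uninjured cells, with 5 and 6 of the 10 at 0, and 40.0 and 39.5 CPM at 8 h, with 3 and 1 at 0. None of the 10 was called at 8 h. Of the other marker lists, 6 of 8 genes of muscle fibres, 5 of 8 of endothelial cells and 3 of the 6 tested of neutrophils were called higher. Of 8 of fibro-adipogenic cells 5 were called higher and 2 lower. The sum of these 8, on the same scale, was nonetheless lower at 8 h (402 and 324 CPM) than in uninjured cells (895 and 702 CPM). The part of these cells in the 8 h result was not tested.

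**Figure D2:**
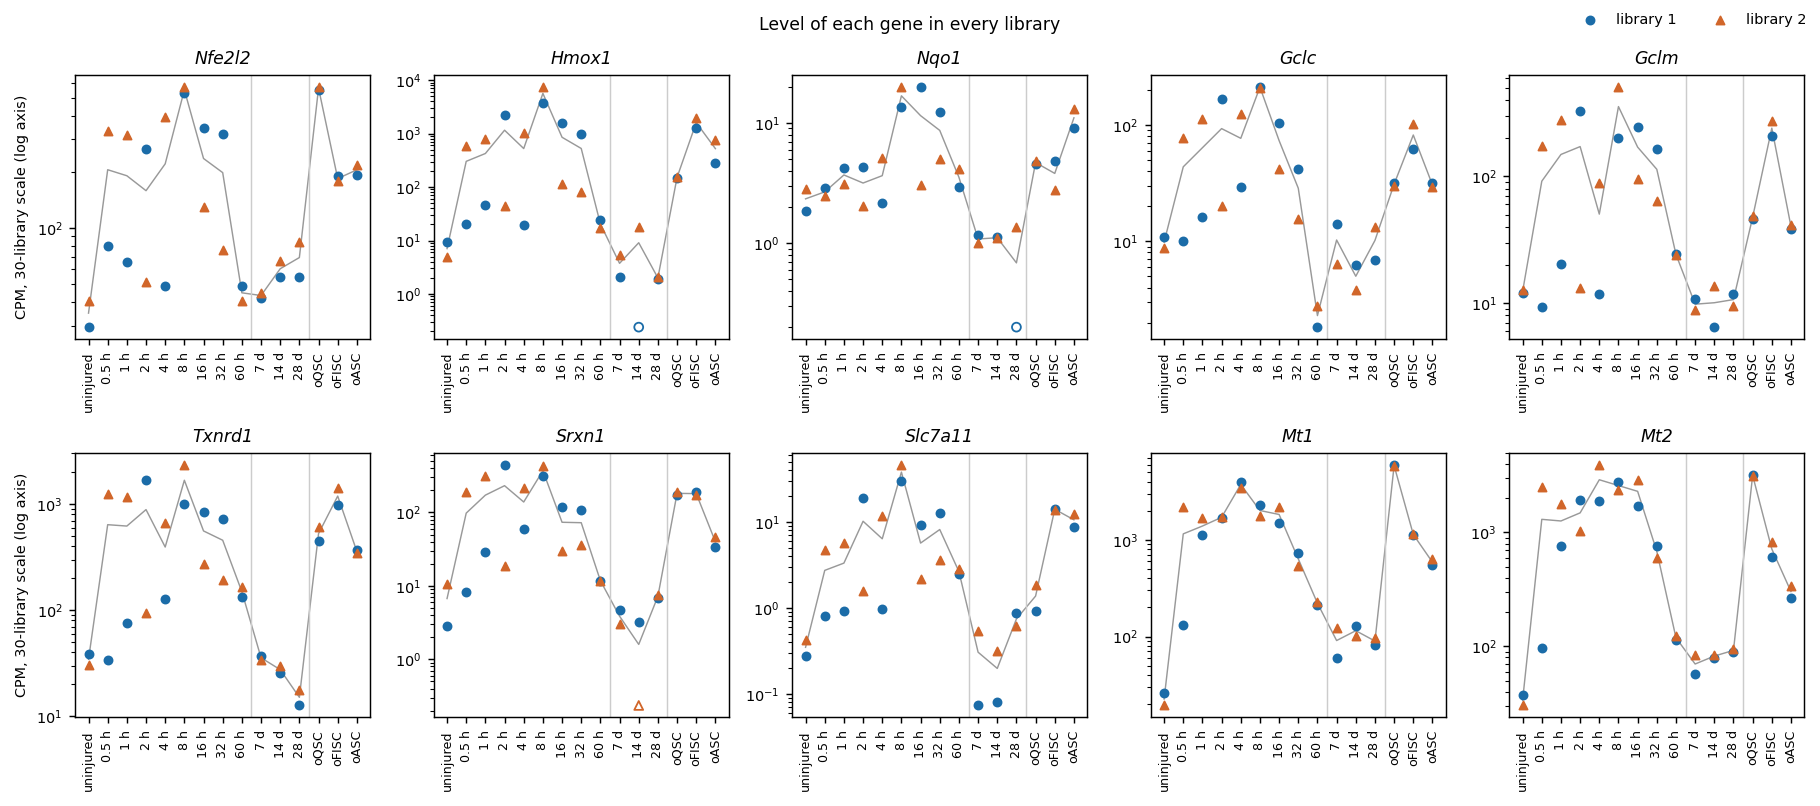
Level of each gene in every library, in CPM on the scale of all 30 libraries (log axis), by group; circles are library 1, triangles library 2, the line joins group means, open symbols are libraries with no count, drawn at 3 counts, and vertical lines separate the 3 tables. Mt1 and Mt2 are high in both libraries from 1 to 16 h, while the other members, Nqo1 least, split widely between the libraries at 0.5 to 4 h.

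Mt1 (chr8:94179082-94180327 in mm10, plus strand) and Mt2 (chr8:94172664-94173568, plus strand) are neighbouring protein-coding genes with 5513 bases between them. Mt1 was at 26.2 and 19.5 CPM in the uninjured libraries and at 127 and 2196 CPM at 0.5 h. At 1 h it was at 1095 and 1711 CPM, at 2 h at 1784 and 1714 CPM, and at 4 h at 3985 and 3506 CPM. Every library from 0.5 h on lay above both uninjured libraries, and the wide gap between libraries at 0.5 h had closed by 2 h. The highest mean of the time course was at 4 h (3746 ± 339 CPM, SD, n = 2), a log2 fold change of 7.36 (standard error 1.04, adjusted p = 0.00223). Its mean was 2007 ± 348 CPM at 8 h, then 1876 ± 503 CPM (16 h), 649 ± 158 CPM (32 h) and 223 ± 12.9 CPM (60 h), and the last was still called higher than in uninjured cells (log2 3.29, standard error 0.86, adjusted p = 0.0138).

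Mt2 followed the same course from 38.0 and 30.6 CPM in uninjured cells. Its libraries held 93.7 and 2528 CPM at 0.5 h, then 745 and 1807 CPM at 1 h. At 2 h they held 2034 and 1024 CPM, and at 4 h 1872 and 3939 CPM. The libraries of the early groups thus differed more for Mt2 than for Mt1 from 1 to 4 h. Its mean was 2905 ± 1462 CPM at 4 h (log2 6.41, standard error 1.19, adjusted p = 0.00759), 2567 ± 292 CPM at 8 h and 120 ± 5.98 CPM at 60 h, where it was not called (adjusted p = 0.174). An antisense gene model overlaps Mt2, and reads from both cannot be told apart, because the strand used in counting is not known. Mt1 was called at 4, 8, 16 and 32 h whichever of the libraries compared was left out. At 0.5 h neither gene was called without uninjured library 1 (Mt1 adjusted p = 0.0590) or without uninjured library 2, and at 1 and 2 h neither was called without uninjured library 1. Mt2 was also not called without uninjured library 2 at 1 h (adjusted p = 0.104) or at 2 h (adjusted p = 0.101), nor at 2 h without 2 h library 1 (adjusted p = 0.0502). Without 0.5 h library 2, Mt1 was still called, with a log2 fold change of 2.55, and Mt2 was not (log2 1.53). At 60 h Mt1 was not called without uninjured library 1 (adjusted p = 0.0702) or uninjured library 2 (adjusted p = 0.0955). Mt2 was called at 8 and 16 h whichever library was left out. It was not called without uninjured library 1 or 2 at 4 h (adjusted p up to 0.0767) or at 32 h, nor without 32 h library 1 (adjusted p up to 0.104).

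Hmox1 (chr8:75093621-75100589, plus strand) showed the largest rise of the 10 genes. It was at 9.37 and 4.98 CPM in uninjured cells and at 3680 and 7571 CPM at 8 h, a mean of 5626 ± 2751 CPM and a log2 fold change of 9.62 (standard error 2.89, adjusted p = 0.0268). Before 8 h its libraries were far apart. Libraries 1 and 2 held 19.3 and 589 CPM at 0.5 h, then 46.2 and 821 CPM at 1 h. The same libraries held 2383 and 43.2 CPM at 2 h, then 19.2 and 1034 CPM at 4 h. At each of these times the library with more Myod1 had more Hmox1, and the lower library still exceeded both uninjured libraries. The value at 4 h was not called (log2 6.204, standard error 2.502, adjusted p = 0.122). By 60 h Hmox1 was at 23.9 and 17.2 CPM, above the uninjured libraries without being called (adjusted p = 0.604).

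Nfe2l2 (chr2:75675513-75704641, minus strand), which encodes the regulator itself, was at 29.996 and 40.9 CPM in uninjured cells. At 8 h it was at 521 and 572 CPM, a mean of 547 ± 35.4 CPM and a log2 fold change of 3.95 (standard error 1.22, adjusted p = 0.0303). At 0.5 h its libraries were at 77.8 and 332 CPM and at 4 h at 48.3 and 394 CPM, again with the high value in the library rich in Myod1. Every injured library of the time course lay above both uninjured libraries, yet at 60 h the values of 49.6 and 41.1 CPM nearly touched them. A small nuclear RNA model overlaps Nfe2l2 on the same strand, and gene models on either strand overlap Gclm, Txnrd1 and Slc7a11, so counts of these genes may hold reads of others.

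Gclc and Slc7a11, which serve glutathione synthesis, rose at 8 h as well. Gclc (chr9:77754535-77794485, plus strand), the catalytic subunit of glutamate-cysteine ligase, went from 11.2 and 8.78 CPM to 211 and 207 CPM (log2 4.39, standard error 1.31, adjusted p = 0.0260). Gclm (chr3:122245557-122270732, plus strand), the modifier subunit of the same enzyme, was at 12.4 and 12.8 CPM in uninjured cells and at 197 and 510 CPM at 8 h. It was the 1 member not called there (log2 4.81, standard error 1.75, adjusted p = 0.0536), though its groups did not overlap. Slc7a11 (chr3:49892526-50443614, minus strand), the cystine importer that supplies cysteine for glutathione, was the lowest member per kilobase of exon in every group. It went from 0.281 and 0.422 CPM to 29.5 and 45.9 CPM at 8 h (log2 6.68, standard error 1.73, adjusted p = 0.0150). This fold rests on few counts in uninjured cells. On the scale of all 30 libraries these were at 0.276 and 0.418 CPM, where 3 counts equal 0.276 and 0.139 CPM. At 60 h Gclc stood at 1.84 and 2.79 CPM, below both uninjured libraries, without being called (log2 -2.10, standard error 1.21, adjusted p = 0.206). It was called lower there when the 0.5 to 4 h libraries were left out of the fit (log2 -2.15, adjusted p = 0.0108).

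Enzymes that keep thiols reduced also rose at 8 h. Txnrd1 (chr10:82833951-82897712, plus strand), the cytosolic thioredoxin reductase, was at 39.0 and 30.7 CPM in uninjured cells and at 1002 and 2342 CPM at 8 h (log2 5.58, standard error 1.87, adjusted p = 0.0402). At 0.5 h its libraries were at 33.0 and 1253 CPM, so that library 1 lay between the uninjured libraries while library 2 was above the lower library of 8 h. Srxn1 (chr2:152105516-152111376, plus strand), sulfiredoxin, which repairs overoxidised peroxiredoxins, was at 2.91 and 10.7 CPM in uninjured cells and at 312 and 423 CPM at 8 h (log2 5.74, standard error 1.82, adjusted p = 0.0329). Its highest single value of the time course was 466 CPM, in 2 h library 1, beside 18.2 CPM in library 2. Nqo1 (chr8:107388225-107403206, minus strand), a quinone reductase often used as a marker of Nrf2 activity, had the smallest rise. It went from 1.87 and 2.86 CPM to 13.4 and 20.05 CPM at 8 h (log2 2.81, standard error 0.82, adjusted p = 0.0238), and between 0.5 and 4 h its libraries stayed between 2.01 and 5.16 CPM.

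Per kilobase of exon, Mt2 was the most abundant member in uninjured cells, at 58.3 CPM per kb, followed by Mt1 at 18.4 and Nfe2l2 at 9.34. At 8 h the order was Mt2 (4366 CPM per kb), Hmox1 (3213) and Mt1 (1611), with Txnrd1 next at 236. Slc7a11 was the lowest in both groups, at 0.025 and 2.71 CPM per kb. The 8 h libraries of Hmox1 and Mt2 overlapped on this scale, so their order lies within the spread. The exon length used for Mt1, 1246 bases, equals the full span of its gene model, while that of Mt2 was 588 bases. A shorter transcript of Mt1 would give it a higher value per kilobase, so its place in these orders is uncertain.

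**Figure D3:**
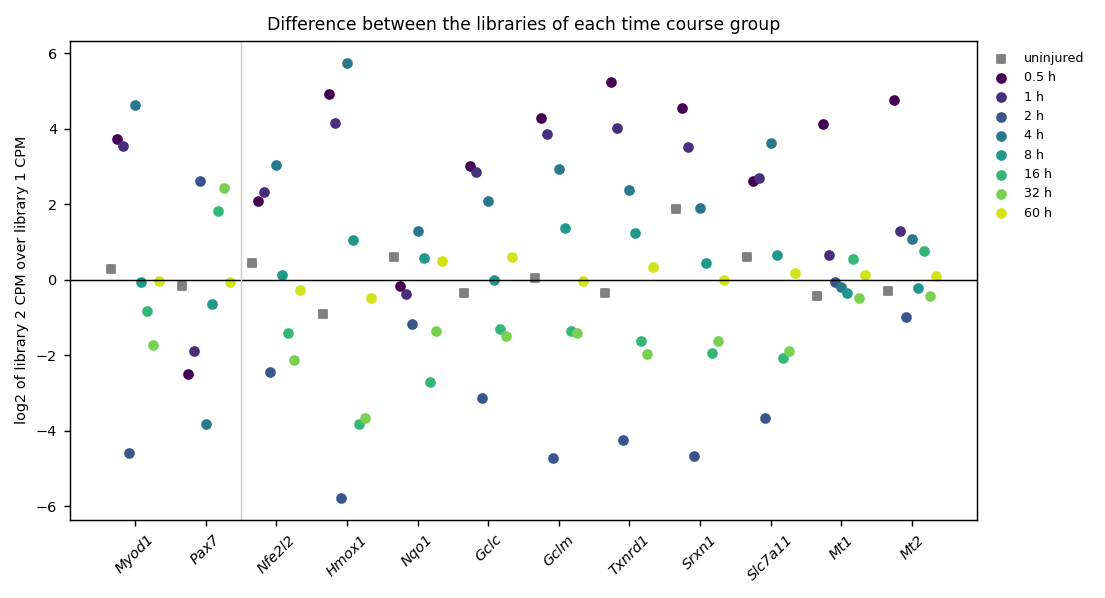
Log2 ratio of library 2 to library 1 within each group of the time course (vertical axis) for Myod1, Pax7 and the 10 members (horizontal axis), 1 symbol per group. At 0.5, 1 and 4 h most members lie on the same side of 0 as Myod1 and opposite to Pax7, at 2 h all are reversed with Myod1, and the 60 h symbols lie near 0.

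Within the early groups the members moved with Myod1 between libraries. Of the 10 members, 9 were higher in library 2 at 0.5, 1 and 4 h, and all 10 were higher in library 1 at 2 h. The median ratio of the higher to the lower library over the members was 18.4 (0.5 h), 6.88 (1 h), 10.7 (2 h) and 4.73 (4 h), against 1.35 in uninjured cells and 1.43 at 8 h. The member that went the other way was Nqo1 at 0.5 and 1 h and Mt1 at 4 h. At 16 h 8 of 10 members and at 32 h all 10 were higher in library 1, where Myod1 was also higher (2533 against 1423 CPM at 16 h and 1370 against 412 CPM at 32 h). The 2 exceptions at 16 h were Mt1 (1521 and 2232 CPM) and Mt2 (1754 and 2943 CPM). The split was not limited to the members. On the scale of all 30 libraries, the sum of 10 satellite cell and myogenic markers was also larger in the Myod1-rich library of each early group. The 10 include Myod1 itself, and also Pax7, which was lower in that library each time. For 0.5 h this sum was 4793 CPM in library 1 and 20792 CPM in library 2. Such counts and ratios were not taken over all genes, so whether the members split more than other genes was not tested. What sets these libraries apart was not tested, and the ratios describe pairs of single libraries.

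The calls rest on few libraries. Leaving out any 1 of the 4 libraries compared left 2 or 3 members called at 8 h, against 8.17%, 9.26%, 8.58% and 10.9% of all genes (without 8 h library 2, 8 h library 1, uninjured library 1 and uninjured library 2). Mt1 and Mt2 were called each time, and Slc7a11 too without 8 h library 1. When the 0.5 to 4 h libraries were left out of the fit, all 10 members were called at 8 h, against 46.8% of all genes in either direction. There were 9 called both at 16 h (38.8% of all genes) and at 32 h (37%). At 60 h 5 were called (Gclc lower, and Txnrd1, Slc7a11, Mt1 and Mt2 higher), close to the 44.4% of all genes. With DESeq2 as the test the number of members called was 5 (0.5 h), 6 (1 h), 8 (2 h) and 6 (4 h), and it was 10 at both 8 and 16 h. DESeq2 called 22.5%, 22.2%, 22.1% and 24.2% of all genes in these 4 early comparisons, 41.1% at 8 h and 33.7% at 16 h.

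After 8 h no step from one time to the next passed edgeR's test for any member. Between 8 and 16 h none of the 10 was called by edgeR, with 0 at an unadjusted p under 0.05 and 0 by DESeq2, and 0.0089% of all genes were called by edgeR and 2.43% by DESeq2. Between 16 and 32 h the counts were the same for the members, and 0.796% of all genes were called by edgeR and 3.8% by DESeq2. Between 32 and 60 h edgeR again called none, 2 had an unadjusted p under 0.05, DESeq2 called 1 (Gclc), and 3.69% of all genes were called by edgeR and 12.3% by DESeq2. The direction was mostly downward all the same. All 10 members were lower at 16 than at 8 h, with a median log2 fold change of -1.33 over the members and 0.042 over all genes. From 16 to 32 h 9 were lower and 1 higher, with medians of -0.49 and 0.016. All 10 members were lower at 60 than at 32 h, with a median log2 fold change of -2.21 over the members and -0.18 over all genes.

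**Figure D4:**
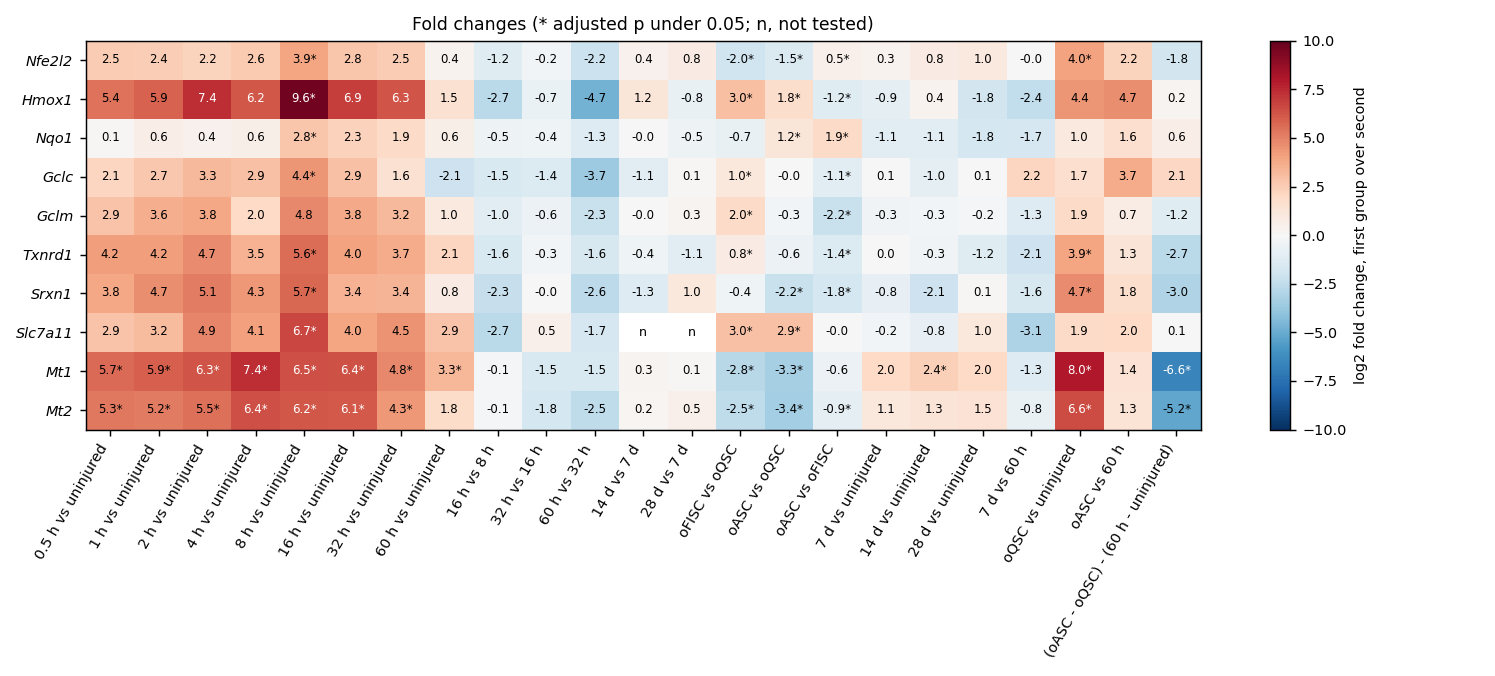
Log2 fold change of each member (rows) in each comparison (columns, first group over second), coloured from blue for lower to red for higher; an asterisk marks an adjusted p under 0.05 and n a gene that was not tested. In the time course 9 of 10 members carry an asterisk at 8 h, and Mt1 carries one at every time from 0.5 to 60 h.

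During regeneration 1 call was made among the members, for Mt1 at 14 d. These groups come from another table, so table and group cannot be told apart, and the values are on the scale of all 30 libraries. Mt1 was at 60.2 and 122 CPM at 7 d, 128 and 102 CPM at 14 d, and 81.9 and 97.7 CPM at 28 d, each above the 25.7 and 19.3 CPM of uninjured cells. It was called at 14 d (log2 2.35, standard error 0.68, adjusted p = 0.0269), where 6.51% of all genes were called higher and 1 of 10 members was. Of 8 muscle fibre markers 6 were called higher in the same comparison, and their sum was 198 and 244 CPM at 14 d against 11.48 and 4.46 CPM in uninjured cells, with 1 and 0 of the 8 at 0 against 3 and 2. Their part in the Mt1 result was not tested. The call was lost when any 1 of the 4 libraries was left out (adjusted p up to 0.273). At 7 d (log2 2.01, standard error 0.68, adjusted p = 0.0578) and at 28 d (log2 2.00, standard error 0.67, adjusted p = 0.0812) Mt1 was not called. For 7 d against uninjured cells edgeR called no member, 1 had an unadjusted p under 0.05 and DESeq2 called 1 (Mt1), against 11.2% of all genes by edgeR and 23.9% by DESeq2. For 28 d the counts of members were the same, and 6.49% of all genes were called by edgeR and 17.5% by DESeq2. Mt2 had 69.98 ± 18.6 CPM at 7 d, 82.1 ± 3.64 CPM at 14 d and 92.2 ± 3.20 CPM at 28 d, against 33.7 ± 4.91 CPM in uninjured cells, and was not called.

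On the scale of all 30 libraries Hmox1 was at 2.05 and 5.44 CPM at 7 d, 0 and 18.2 CPM at 14 d, and 1.94 and 2.06 CPM at 28 d. The value of 0 in 14 d library 1 allows up to 0.240 CPM, the level of 3 counts there. Counts of 0 were also found for Srxn1 in 14 d library 2 and for Nqo1 in 28 d library 1. Against 60 h, 7 d cells had no member called by edgeR, 2 at an unadjusted p under 0.05 and 1 by DESeq2 (Slc7a11), with 16.8% of all genes called by edgeR and 30.7% by DESeq2. Within the table of regeneration, the filter on low counts was passed by 9 members and not by Slc7a11. Between 7 and 14 d edgeR called none of them, with 0 at an unadjusted p under 0.05 and 0 by DESeq2 (0.0531% of all genes called by edgeR and 3.73% by DESeq2). Between 7 and 28 d none was called and 0 by DESeq2, while Nfe2l2 and Txnrd1 had an unadjusted p under 0.05 (0.295% of all genes called by edgeR and 7.44% by DESeq2).

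In old cells the members did not move as 1 group. Among the old groups only oQSC is labelled as fixed in place. In comparisons with oQSC, a difference in fixation thus cannot be told apart from one in isolation or injury. Against oQSC, 5 of 10 were called higher and 3 lower in oFISC, where 19.3% of all genes were called higher and 22.6% lower. In oASC 3 were called higher and 4 lower, against 19% and 21.3% of all genes. Between oASC and oFISC 2 were higher and 6 lower, against 27.3% and 39.7%. In these 3 comparisons the members had a median log2 fold change of 0.20, -0.41 and -0.96, beside 0.52, -0.33 and -1.05 over all genes tested.

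The metallothioneins were highest in oQSC and fell in both other groups. Mt1 was at 5217 and 4894 CPM in oQSC, 713 and 781 CPM in oFISC, and 470 and 535 CPM in oASC. The groups did not overlap, and the fall to oASC was a log2 fold change of -3.33 (standard error 0.26, adjusted p = 3.42e-05). Mt2 was at 2771 and 2674 CPM in oQSC, 389 and 553 CPM in oFISC, and 227 and 290 CPM in oASC (in oASC log2 -3.40, standard error 0.29, adjusted p = 4.94e-05). From oFISC to oASC Mt2 was called lower (log2 -0.87, standard error 0.26, adjusted p = 0.0193, lost without either oASC library) and Mt1 was not (log2 -0.57, standard error 0.24, adjusted p = 0.0604).

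Markers of other cells and the share of ribosomal RNA differed between the old groups as well. In oFISC against oQSC 2 of 10 macrophage and monocyte markers were called higher and 5 lower, and their sum, on the scale of all 30 libraries, was 39.5 and 28.7 CPM in oFISC and 159 and 128 CPM in oQSC. Of the fibro-adipogenic markers 5 of 8 were called lower there, of the red blood cell markers 4 of 6 lower and 1 higher, and of the muscle fibre markers 3 of 8 higher, with a sum of 655 CPM in oFISC library 1 and 49.5 CPM in library 2. In oASC against oQSC the macrophage sum was 82.5 and 107 CPM in oASC, with 2 of 10 called higher and 2 lower. There 5 of 8 fibro-adipogenic markers were called lower and 1 higher, 6 of 8 endothelial markers lower and 5 of 6 red blood cell markers lower. The red blood cell sum was 241 and 226 CPM in oQSC, 54.1 and 33.9 CPM in oFISC, and 8.39 and 6.95 CPM in oASC. In oFISC and oASC at most 2 markers of any of these lists had no count. The part of these cells and of the ribosomal RNA share in the old-cell results was not tested.

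Nfe2l2 took the same direction as the metallothioneins, and Hmox1 the opposite one. Nfe2l2 was at 479 and 485 CPM in oQSC, 121 and 120 CPM in oFISC and 165 and 185 CPM in oASC, with log2 fold changes against oQSC of -2.00 (standard error 0.20, adjusted p = 0.000170) and -1.46 (standard error 0.19, adjusted p = 0.000493). Hmox1 was at 129 and 132 CPM in oQSC, 823 and 1292 CPM in oFISC, and 243 and 648 CPM in oASC. It rose in oFISC (log2 3.02, standard error 0.46, adjusted p = 0.00128) and in oASC (log2 1.77, standard error 0.44, adjusted p = 0.0119). The rise in oASC was not called without oASC library 2, oQSC library 1 or oQSC library 2 (log2 0.90 to 2.34 over all alternatives).

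Glutathione and thiol genes differed among themselves. Gclm was at 40.2 and 41.5 CPM in oQSC, 133 and 182 CPM in oFISC, and 33.2 and 35.4 CPM in oASC, and Gclc was at 27.7 and 25.4, 39.6 and 68.1, and 26.9 and 25.1 CPM. Both subunits of the ligase were thus higher in oFISC (log2 1.95 for Gclm, adjusted p = 0.000279, and 1.02 for Gclc, adjusted p = 0.0173, lost without either oQSC library), and neither was called in oASC against oQSC. Slc7a11 was at 0.802 and 1.54 CPM in oQSC, 9.12 and 9.23 CPM in oFISC, and 7.52 and 10.5 CPM in oASC, higher in both (log2 2.96, adjusted p = 0.000521, and 2.93, adjusted p = 0.000398). Txnrd1 was at 392 and 511 CPM in oQSC, 620 and 948 CPM in oFISC, and 316 and 295 CPM in oASC, and only the rise in oFISC was called against oQSC (log2 0.80, adjusted p = 0.0414). It was lost without oFISC library 2, oQSC library 1 or oQSC library 2 (adjusted p up to 0.522 over all alternatives). Srxn1 was at 150 and 162 CPM in oQSC and 120 and 116 CPM in oFISC, where it was not called (log2 -0.40, standard error 0.21, adjusted p = 0.153). It fell to 28.6 and 39.5 CPM in oASC (log2 -2.20, standard error 0.22, adjusted p = 0.000116). Nqo1 was at 3.95 and 4.09 CPM in oQSC, 3.11 and 1.85 CPM in oFISC, and 7.75 and 11.1 CPM in oASC, a rise in oASC of log2 1.23 (adjusted p = 0.0201) that was lost without oASC library 2 or either oQSC library.

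With another scaling method (RLE) the median of all genes in oFISC against oQSC moved by 0.30 on the log2 scale and the share of all calls that were higher went from 46.0% to 56.8%, and no call of a member was lost. In oASC against oFISC the rise of Nfe2l2 (log2 0.54, adjusted p = 0.0346) was lost under RLE (log2 0.27, adjusted p = 0.197), under DESeq2 and without either oASC library. When the old cells were tested in the fit of all 30 libraries, an alternative chosen after seeing the data that has a larger estimate of spread, 1 member (Mt1) was called in oFISC against oQSC (8.47% of all genes), 2 (Mt1 and Mt2) in oASC against oQSC (17.3%), and 0 in oASC against oFISC (27.1%).

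**Figure D5:**
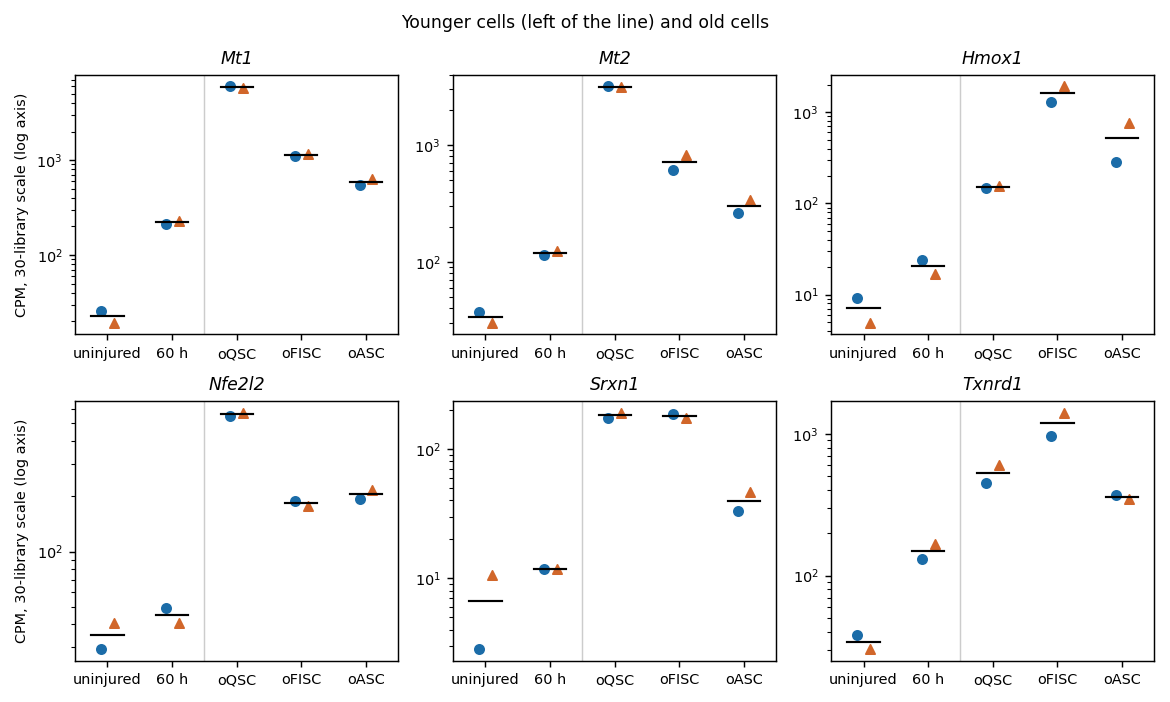
Levels of 6 members in CPM on the scale of all 30 libraries (log axis) in uninjured and 60 h cells and in the 3 groups of old cells; circles are library 1, triangles library 2 and bars group means. Mt1, Mt2 and Nfe2l2 are highest in oQSC, and Hmox1 and Txnrd1 in oFISC.

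Old untreated cells had more metallothionein RNA than uninjured younger cells. On the scale of all 30 libraries Mt1 was at 5991 and 5778 CPM in oQSC and at 25.7 and 19.3 CPM in uninjured cells (log2 8.03, standard error 0.88, adjusted p = 3.01e-06). Mt2 was at 3183 and 3157 CPM against 37.2 and 30.3 CPM (log2 6.55, standard error 0.95, adjusted p = 4.93e-05). These were the highest group means of Mt1 and Mt2 among the 15 groups. Nfe2l2 (log2 4.00, standard error 0.96, adjusted p = 0.00444), Srxn1 (log2 4.74, standard error 1.501, adjusted p = 0.0275) and Txnrd1 (log2 3.94, standard error 1.35, adjusted p = 0.0403) were also called higher, which made 5 of 10 members against 12.3% of all genes. Hmox1 was at 148 and 155 CPM against 9.19 and 4.93 CPM and was not called (log2 4.43, standard error 2.04, adjusted p = 0.126). Leaving out either oQSC library left 3 members called (Nfe2l2, Mt1 and Mt2), against 9.45% and 11.2% of all genes, and leaving out either uninjured library left Mt1 and Mt2, against 9.25% and 11%. These groups come from different tables, so age and table cannot be told apart. On the same scale Myod1 was at 1070 and 1536 CPM in oQSC and 41.4 and 50.8 CPM in uninjured cells, and the part of this difference in the result was not tested. The sum of 10 macrophage and monocyte markers was 159 and 128 CPM in oQSC, with 1 of the 10 at 0 in each library, against 5.79 and 4.18 CPM in uninjured cells, with 5 and 6 at 0, and its part was not tested either. Of 8 muscle fibre markers 7 were called higher. Ribosomal RNA made up 0.393% and 0.541% of the counts in oQSC and 49.7% and 37.3% in uninjured cells, and the part of this difference was not tested.

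The change of the metallothioneins from untreated to injured groups differed between old and younger cells. Old and younger groups come from different tables, so age and table cannot be told apart. oASC is not labelled as fixed in place, while oQSC is. As given above, oQSC and uninjured cells also differed in Pax7, Myod1 and the share of ribosomal RNA. The part of these differences was not tested. Mt1 fell from oQSC to oASC and rose from uninjured to 60 h, and the difference between the responses was a log2 fold change of -6.62 (standard error 1.00, adjusted p = 0.000526). For Mt2, whose change from uninjured to 60 h was not itself called in the time course (log2 1.81, adjusted p = 0.174), it was -5.21 (standard error 1.12, adjusted p = 0.00653). These were the 2 of 10 members called in the test of the difference, both lower, against 3.99% of all genes. Mt1 was called whichever library was left out, and Mt2 was not called without either oASC or either uninjured library (adjusted p up to 0.0730). After injury the groups were closer, with Mt1 at 589 ± 57.6 CPM in oASC and 221 ± 12.8 CPM at 60 h. For oASC against 60 h edgeR called no member, 4 had an unadjusted p under 0.05 and DESeq2 called 1 (Gclc), against 2.2% of all genes by edgeR and 9.49% by DESeq2. Gclc was at 31.4 and 29.5 CPM in oASC and 1.83 and 2.77 CPM at 60 h (log2 3.72, standard error 1.04, adjusted p = 0.0639 by edgeR).

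Genes that control Nrf2 or work beside its targets were counted from lists of known genes. Of 10 genes of Nrf2 control 5 were called higher and 1 lower at 8 h (16.1% and 14% of all genes), and the members' median log2 fold change of 5.66 stood beside 1.64 for this list. Mafk, a small Maf partner of Nrf2, rose from 27.4 to 472 CPM at 8 h (log2 4.10, adjusted p = 0.00727) and was already called at 1 h (534 CPM, adjusted p = 0.0117). Maff, another small Maf, was at 5.25 CPM in uninjured cells, 84.4 CPM at 1 h (adjusted p = 0.0133) and 38.4 CPM at 8 h (adjusted p = 0.0216). In old cells both fell from oQSC to oASC, with log2 fold changes of -3.65 for Maff (adjusted p = 1.15e-05) and -2.49 for Mafk (adjusted p = 0.000212).

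Of 14 glutathione and thioredoxin enzymes 7 were called higher and 0 lower at 8 h (16.1% and 14% of all genes), and 6 higher and 1 lower at 60 h (15.5% and 12.8%). Gsr, glutathione reductase, went from 8.42 CPM to 57.2 CPM at 8 h (adjusted p = 0.0119) and to 107 CPM at 60 h (adjusted p = 0.00269). Gpx1, glutathione peroxidase, was called at both times, with 27.6 CPM in uninjured cells, 76.6 CPM at 8 h and 246 CPM at 60 h. Gstm1, a glutathione transferase, was called lower at 60 h (83.7 against 476 CPM, adjusted p = 0.00555). In old cells 12 of the 14 were called lower and 0 higher in oFISC against oQSC, beside 22.6% and 19.3% of all genes. In the supply of NADPH, which both reductases use, 3 of 6 genes were called higher at 8 h (16.1% of all genes) and 5 at 60 h (15.5%), and 5 in oASC against oQSC (19%). G6pdx, the entry enzyme of the pentose phosphate pathway, was at 16.0 CPM in uninjured cells, 73.4 CPM at 8 h (adjusted p = 0.0483) and 149 CPM at 60 h (adjusted p = 0.0111).

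For heme and iron, 4 of 12 genes were called higher and 0 lower at 8 h, beside 16.1% and 14% of all genes. The ferritin subunits, which store iron, were among them. Ftl1 went from 262 to 5835 CPM (log2 4.48, adjusted p = 0.00349) and Fth1 from 761 to 6639 CPM (log2 3.13, adjusted p = 0.00227). In oFISC against oQSC 8 of these 12 genes were called lower and 1 higher (22.6% and 19.3% of all genes). Of 11 genes of zinc and metal handling 7 were called higher at 8 h and 0 lower (16.1% and 14% of all genes). Mt3, another metallothionein, had no count in either uninjured library and was at 23.5 and 20.05 CPM at 8 h, while the 16 h libraries held 31.8 and 47.7 CPM. Slc30a1, a zinc exporter, was at 4.86 CPM in uninjured cells and 5.35 CPM at 8 h and was not called (adjusted p = 0.866).

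Of 8 other genes known as Nrf2 targets 2 were called higher and 3 lower at 8 h, where 16.1% of all genes were called higher and 14% lower, so the count of higher genes was near that of all genes. Osgin1, an oxidative stress-induced gene, rose from 16.4 to 369 CPM (log2 4.49, adjusted p = 0.00690). Ephx1, epoxide hydrolase, fell from 249 to 6.83 CPM (log2 -5.19, adjusted p = 0.00623), and Abcc4, an export pump, fell from 26.9 to 2.71 CPM (log2 -3.31, adjusted p = 0.00739). Of 9 enzymes of superoxide and peroxide removal 3 were called higher and 3 lower at 8 h (16.1% and 14% of all genes), and all 9 were called lower in oFISC against oQSC (22.6%). Sod3, the extracellular superoxide dismutase, was lower at 8 h (22.0 against 156 CPM, adjusted p = 0.00305).

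Across the 15 group means, the genes whose log2 CPM was most like that of a member were looked up among 8962 other genes with at least 20 CPM in their highest group. The groups share tables and the same few libraries, so the correlations are given as a description. Mt1 and Mt2 were each other's nearest gene (Pearson r = 0.978). The nearest gene to Hmox1 was Cxcl3 (r = 0.979), then Vasn (0.977) and Txnrd1 (0.973). Gclm was nearest to Hmox1 (0.947) and Txnrd1 to Tbc1d1 (0.976). Nfe2l2 was nearest to Riok3 (0.975), Srxn1 to Fgl2 (0.972), Nqo1 to Rdh10 (0.953), Gclc to Kansl3 (0.950) and Slc7a11 to Nepro (0.948). Among pairs of members the lowest correlation was 0.603, both for Nqo1 with Gclc and for Nqo1 with Mt1.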

How the data were processed

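RNA of satellite cells was measured in 30 libraries, 15 groups of 2. Per the labels' protocols, RNA was taken with an FFPE kit, SMART-Seq v4 cDNA was cut with Tn5 and read as paired ends on a DNBSEQ-G400. Per the submitters' processing notes, Trimmomatic 0.36, HISAT2 2.1.0, SAMtools 1.3, StringTie 1.3.3 and the build mm10 were used. For the counting step, the program, strand setting and annotation were not given in the sources used here. The authors deposited raw counts per gene in 3 tables, with no normalization. Gene positions, types and exon lengths are from GENCODE M21 on mm10.

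Counts were tested with edgeR 4.0.16 (R 4.3.3, limma 3.58.1), using filterByExpr (minimum count 10, minimum total 15), TMM scaling and the quasi-likelihood F test. P-values were adjusted by the Benjamini-Hochberg method over all genes tested, with a threshold of 0.05. The time course was fitted on 18 libraries (22479 genes), regeneration on 6 (16954 genes), old cells on 6 (30099 genes), and comparisons between tables on all 30 (28823 genes), joined on 55154 shared identifiers. The standard error is the absolute log2 fold change over the square root of F. The level of 3 counts was 0.0595 to 0.276 CPM per library and covers counting error only. The scripts were tested on simulated data. Alternatives were DESeq2 1.42.0, RLE scaling, a block for the replicate number, no filter on low counts, fits of other sets of libraries, and each library left out in turn.

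The members and the gene lists were chosen with earlier results of these data known. From each list of other genes, those named are up to 3 with the smallest adjusted p in the test for any change over the time course and up to 2 with the smallest in oASC against oQSC. Genes most like a member are those with the highest Pearson r of log2 CPM (prior count 2) over the 15 group means, leaving out unnamed gene models and mitochondrial and ribosomal protein genes. Promoter sequences are from RefSeq, GRCm38.p6. Motifs were searched on both strands.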

Additional observations from a re-analysis of the deposited data

Results flagged for a closer look

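The change of Mt1 and Mt2 from untreated to injured groups differed between old and younger cells. The log2 fold change from oQSC to oASC minus that from uninjured to 60 h was -6.62 for Mt1 (adjusted p = 0.000526, edgeR's quasi-likelihood test) and -5.21 for Mt2 (adjusted p = 0.00653). Both oASC libraries lay below both oQSC libraries, and both 60 h libraries lay above both uninjured libraries, for each gene. Old and younger cells come from different tables, so age and table cannot be told apart. oQSC is labelled as fixed in place and oASC is not. On the scale of each table's own fit, Myod1 was at 931 and 1301 CPM in oQSC. In uninjured cells it was at 42.3 and 51.3 CPM. The part of these differences was not tested.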

How the results depend on the processing

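No member's call changed direction under any alternative run. With DESeq2 the number of members called was 5 at 0.5 h, 6 at 1 h, 8 at 2 h, 6 at 4 h, 10 at 16 h, 5 at 32 h, 8 for any change, and 1 each for 60 against 32 h, 7 d, 28 d, 7 d against 60 h and oASC against 60 h. With no filter on low counts it was 6 at 0.5 h, 9 at 1 h, 8 at 2 h, 8 at 4 h, 10 at 16 h, 8 at 32 h, 10 for any change, 3 for 60 against 32 h, 1 at 7 d, 3 at 14 d, 3 at 28 d, 6 for 7 d against 60 h, 8 for oQSC against uninjured, 6 for oASC against 60 h and 4 for the difference of the injury responses. Without the 0.5 to 4 h libraries in the fit it was 9 at 16 h, 9 at 32 h and 5 at 60 h. With 2 tables in the fit it was 0 at 14 d, against 12.2% of all genes. With all 30 libraries in the fit, an alternative chosen after seeing the data, it was 1 for oFISC against oQSC, 2 for oASC against oQSC and 0 for oASC against oFISC. DESeq2 called 22.1% to 24.2% of all genes from 0.5 to 4 h and 33.7% at 16 h. It called 31.4% at 32 h and 48.7% for any change. Without the 0.5 to 4 h libraries 38.8% (16 h), 37% (32 h) and 44.4% (60 h) were called. With no filter the shares were 7.95% (0.5 h), 7.88% (1 h), 7.48% (2 h), 8.74% (4 h), 14.8% (16 h) and 13.2% (32 h). They were 23.7% for any change, 3.44% for 60 against 32 h, 6.76% (7 d), 7.75% (14 d) and 4.05% (28 d). The share was 10.1% for 7 d against 60 h and 12.2% for oQSC against uninjured. It was 2.01% for oASC against 60 h and 4.89% for the difference of the responses. The cause of these changes was not tested.

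With 1 library left out the number of members called ranged from 0 to 2 at 0.5 h, 0 to 2 at 1 h, 0 to 4 at 2 h, 1 to 2 at 4 h, 2 to 3 at 8 h, 2 to 3 at 16 h, 1 to 2 at 32 h, 0 to 1 at 60 h and 1 to 5 for any change. It was 6 to 8 for oFISC against oQSC, 5 to 7 for oASC against oQSC, 4 to 8 for oASC against oFISC, 0 at 14 d, 0 to 1 at 28 d, 2 to 3 for oQSC against uninjured and 1 to 2 for the difference of the responses. Of 220 such results on single members, 136 stayed called. RLE scaling moved the median of all genes by -0.12 at 2 h, -0.11 at 4 h, -0.15 at 16 h, -0.24 at 32 h, -0.26 for oASC against oFISC, -0.13 for oQSC against uninjured and -0.17 for oASC against 60 h. The share of calls that were higher went from 62.5% to 51.9% at 16 h, from 68.7% to 57.8% at 32 h and from 53.2% to 37.4% for oASC against 60 h.

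The replicate numbers were not used to pair the samples. Deviations of same-numbered libraries correlated at -0.707 to 0.645 over 36 pairs of time course groups. The libraries split by Myod1 in different directions between groups, so these values cannot show whether same-numbered libraries shared an animal or batch. With the replicate number as a block, 8 members were called at 8 h and 7 in oASC against oFISC, and 51 of 53 calls stayed. With that block 25.9% of all genes were called at 8 h and 56.7% in oASC against oFISC. Groups of 2 libraries limit every test here.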
